A study of Homo sapiens with 6 samples.

Results

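The clustered H2A and H2B genes are the members of 2 core histone families that lie in the HIST1, HIST2 and HIST3 gene clusters. They were taken as every gene of the table whose symbol starts with HIST, a cluster number and H2A or H2B, which gave 49 genes of 56794. Of these, 23 are H2A and 26 are H2B genes. The annotation lists 35 as protein coding, 17 H2A and 18 H2B, and 14 as pseudogenes, which are kept apart below. The 49 genes had 66 transcripts, and 51 of them carried values. RNA was sequenced from HEK293, a human embryonic kidney cell line, here expressing luciferase as a reporter. The parental line gave 3 libraries, and the line in which CASP8AP2 was deleted by CRISPR, per the labels, gave the other 3. Both lines carry the luciferase and were grown in the same serum-supplemented medium. The study is concerned with the yield of recombinant protein and with a halt of the cycle at G0/G1. The labels do not say whether the mutant is 1 clone, nor whether libraries of a group came from separate cultures, so p-values measure only the spread between these samples, which may be technical.

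H2A and H2B pair as a dimer, and dimers of both flank the H3-H4 tetramer in the nucleosome. Most clustered histone genes are expressed in S phase, and their messages are the only metazoan mRNAs that end without a poly(A) tail. A stem-loop near the end of the message is bound by SLBP, and the U7 snRNP with its endonuclease CPSF3 cuts just after it. CASP8AP2, also called FLASH, binds the U7 protein LSM11 and takes part in this cut. Many of these genes also have annotated longer forms that run past the stem-loop, or are spliced over it, and end in a poly(A) tail. Many members, though not all, lie as divergent pairs, in which an H2A and an H2B gene share the stretch between their starts.

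The stem-loop is the feature that the CASP8AP2 reaction acts beside, so it is shown here for members that span the range of levels and differences. The 16 bases of the stem-loop are in capitals, with the bases that flank them, as read from the annotated transcripts (GENCODE 29, hg38).
HIST1H2BD (chr6:26158587-26158602, plus strand): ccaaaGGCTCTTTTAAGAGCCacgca
HIST1H2AC (chr6:26124669-26124684, plus strand): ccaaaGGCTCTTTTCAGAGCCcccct
HIST1H2AG (chr6:27133515-27133530, plus strand): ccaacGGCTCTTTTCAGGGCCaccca
HIST2H2AA3 (chr1:149842223-149842238, minus strand): caaaaGGCTCTTTTCAGAGCCaccca
HIST2H2BE (chr1:149886188-149886203, minus strand): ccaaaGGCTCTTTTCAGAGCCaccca
HIST3H2A (chr1:228457369-228457384, minus strand): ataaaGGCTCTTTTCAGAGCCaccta
A stem-loop was found in an annotated transcript of 18 coding members. The core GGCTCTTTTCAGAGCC was held by 14 of them, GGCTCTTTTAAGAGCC by HIST1H2BC, HIST1H2BD and HIST1H2BF, and GGCTCTTTTCAGGGCC by HIST1H2AG alone. For the other 17 the annotated transcripts hold no match close after the stop codon. Their unspliced models end at the stop codon, so a stem-loop beyond it could not be read and is not shown to be lacking. The pattern occurred in 20 of the 43 coding member transcripts with values and in 0.118% of all tested transcripts.

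All values below are group means of a length-scaled abundance, with the 1 that the authors had added taken off. A gene's level is the sum over its transcripts. The log2 ratio sets the mutant over the parental group mean, with 1 added to each, which understates the difference of low genes. Over all 14856 genes with a level of at least 1 in either group, called measured here, the median log2 ratio was -0.01. The estimated library sizes were 57500363, 15013307 and 13297776 reads in the mutant group and 15307773, 11596629 and 9185690 in the parental group. The CASP8AP2 message itself stood at 15.7 in the mutant group and at 15.9 in the parental group. The table gives no values by exon, so this level does not check the edit. Of 8 genes expressed in HEK293 all were measured, and 2 of them differed widely, NEFL at 434 against 35.7 and NEFM at 0.0690 against 8.63 (mutant against parental). Of 7 markers of blood, liver, heart and vessel cells none was measured, their summed level was 0.354 against 0.290, and CD3E and HBB were listed at 0.

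The summed level of the 35 coding genes was 290.4 in the mutant group and 102 in the parental group, a 2.85-fold higher level. The H2B genes accounted for more of this, with 173 against 46.3 (3.74-fold), than the H2A genes, with 117 against 55.5 (2.11-fold). Of the 35, 25 were higher in the mutant group, 6 were lower and 4 were listed at 0 in both. No transcript of the 51 passed the deposited adjusted p at 0.05, against 0.0221% of all 140552 tested transcripts, and the smallest adjusted p among members was 0.106 in the authors' deposited table. At an unadjusted deposited p under 0.05, 21 of 51 transcripts were higher in the mutant group, against 3.3% of all tested transcripts. By the same rule 2 of 51 were lower, against 2.48%. In these bulk libraries a larger share of cells with histone message and more message per cell cannot be told apart. Whether only poly(A) RNA was kept is not given. A larger share of messages with a poly(A) tail therefore cannot be told apart from these either, and none of the 3 was tested.

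Of the coding genes 16 were measured, 7 H2A and 9 H2B. Their log2 ratios ran from -1.20 to 2.46 with a median of 1.06. The median was 1.12 for the H2A and 1.00 for the H2B genes, and 0.25 when all 35 coding genes were kept. A log2 ratio of at least 1 was held by 9 of the 16, against 1.51% of all measured genes. The filter favours such genes, since 4 of the 16 reached a level of 1 in the mutant group alone and 1 in the parental group alone. Among the 23 member transcripts at 1 or more in either group, pseudogenes included, 15 were higher at an unadjusted deposited p under 0.05, against 5.78% of all transcripts at that level, and 1 was lower, against 6.01%. Of the 15, 10 reached a level of 1 in the mutant group alone, so this count is a description of transcripts that the filter favours.

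**Figure D1:**
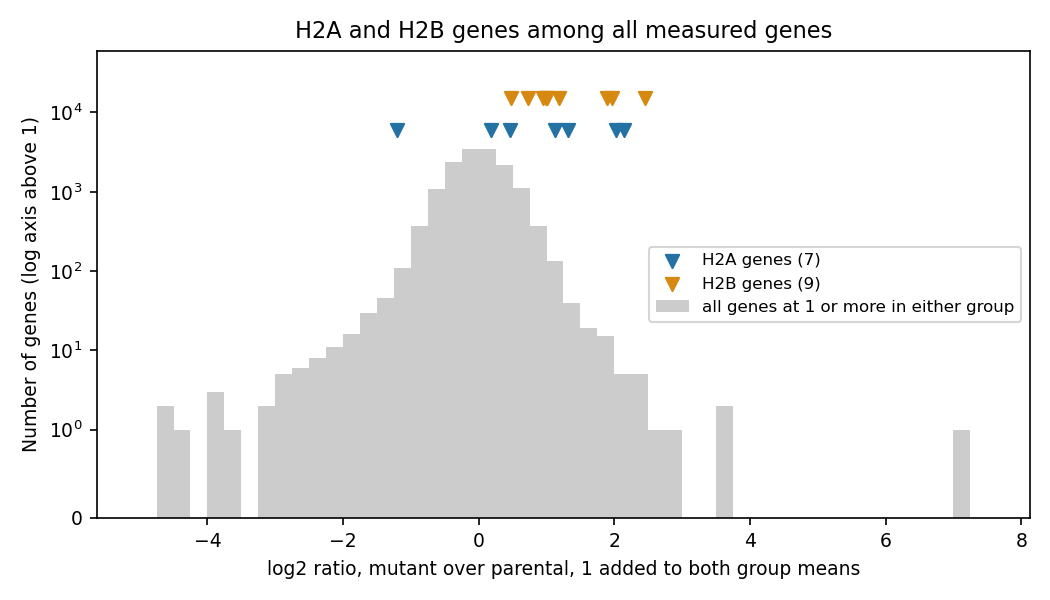
Number of measured genes (vertical, log axis above 1) by log2 ratio of mutant over parental group means (horizontal), in grey for all 14856 measured genes. Triangles mark the 7 H2A and 9 H2B coding genes, of which 15 lie above 0 and 1, HIST2H2AC, at -1.20. The height of the triangles has no meaning.

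The most abundant member was HIST1H2BK, which encodes an H2B and lies on chromosome 6 (27146418 to 27146798). Its single transcript, annotated as the coding sequence alone, had a level of 129.5 in mutant and 34.3 in parental cells, with a deposited p of 0.00207 (adjusted 0.386), per the authors' deposited table. HIST1H2BK made up 44.6% of the summed coding level in the mutant and 33.7% in the parental group. Without it the other 34 genes summed to 161 against 67.5, which is 2.38-fold. The summed H2B level was 1.48 times the H2A level in the mutant group and 0.835 times in the parental group. Without HIST1H2BK these ratios were 0.374 and 0.217, so the order of the families in the mutant group rests on this gene.

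The next most abundant were 3 H2A genes. HIST2H2AA4 stood at 36.7 against 14.1 (deposited p 0.169) and HIST2H2AA3 at 30.4 against 6.71 (deposited p 0.0695) in the authors' deposited table. They encode the same protein, and the whole 549-base message of HIST2H2AA3 lies within that of HIST2H2AA4, so reads cannot be assigned to 1 of the copies and the sum is the safer value. Together they stood at 67.1 against 20.8, a log2 ratio of 1.64. HIST3H2A, the H2A gene of the small HIST3 cluster, differed from this, with 31.2 against 27.4 and a deposited p of 0.545 in the authors' deposited table. It held 26.9% of the summed coding level in the parental group and 10.7% in the mutant group.

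**Figure D2:**
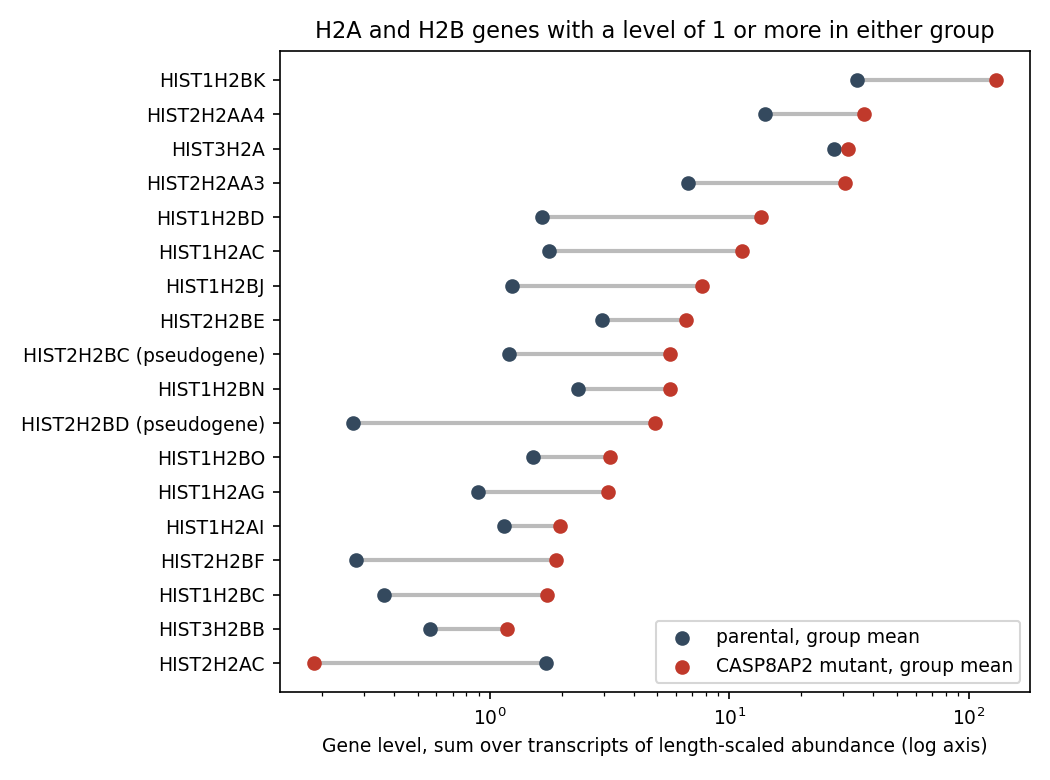
Gene level (horizontal, log axis, sum over transcripts of the length-scaled group mean) of the 16 measured coding members and of 2 pseudogenes, with the parental group in dark blue and the mutant group in red. The group means carry no error. HIST1H2BK is highest in both groups, at 129.5 and 34.3, HIST3H2A has close points, at 31.2 and 27.4, and HIST2H2AC has the mutant point on the left.

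Among the other measured H2B genes, HIST1H2BD had the highest log2 ratio of the measured coding members, 2.46, with 13.6 against 1.65. HIST1H2BJ stood at 7.73 against 1.24 (log2 ratio 1.96) and HIST2H2BF at 1.90 against 0.277 (1.18). HIST1H2BC stood at 1.73 against 0.364 (1.00), HIST1H2BN at 5.64 against 2.33 (1.00) and HIST2H2BE at 6.63 against 2.95 (0.95). HIST1H2BO at 3.17 against 1.52 and HIST3H2BB at 1.18 against 0.562 had the lowest log2 ratios of the 9, 0.73 and 0.48. For HIST1H2BO-201 the deposited p was 0.0250 in the authors' deposited table. All 9 measured H2B genes were thus higher in the mutant group, though 3 of them, HIST1H2BC, HIST2H2BF and HIST3H2BB, were under 1 in the parental group.

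Among the other measured H2A genes, HIST1H2AC stood at 11.3 against 1.77 (log2 ratio 2.15) and HIST1H2AG at 3.13 against 0.897 (1.12), with a deposited p of 0.00507 for HIST1H2AG-201 in the authors' deposited table. HIST1H2AI stood at 1.96 against 1.15 (0.46). HIST2H2AC was the only measured coding member with the lower level in the mutant group, 0.184 against 1.72, with a deposited p of 0.0271 (adjusted 0.703) in the authors' deposited table. Its annotated model is the coding sequence alone, and its divergent partner HIST2H2BE went the other way, with a deposited p of 0.0269 in the authors' deposited table.

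Of the coding genes under a level of 1 in both groups, 15 were above 0. Of these 10 were higher and 5 lower in the mutant group, with log2 ratios from -0.21 to 0.54. HIST1H2AA, HIST1H2AJ, HIST1H2BA and HIST1H2BI were listed at 0 in both. HIST1H2AD, at 0.00263 against 0.154, was the second transcript lower at an unadjusted p under 0.05 (0.0427 in the authors' deposited table), and 385 bases of its 393-base model overlap AL031777.3 on the same strand. HIST1H2AM, an H2A gene, stood at 0.620 against 0.358 (deposited p 0.0433 in the authors' deposited table), and 346 bases of its model overlap an exon of HIST1H3J on the same strand.

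For some transcripts the deposited means could be turned back into whole reads of the single libraries, since each mean is a sum of whole multiples of what 1 read is worth. This worked in both groups for 17 member transcripts and in 1 group for 6 more. A solution in both groups was kept only where an equal-variance test on log2 values (4 degrees of freedom) returned the deposited p. The match, within 1e-10 for the 17, is thus a condition of being kept and no independent check of the reads. The libraries are named by depth, deepest first, since the replicate numbers cannot be assigned. HIST1H2BG-201, an H2B transcript, had abundances of 0.835, 0.457 and 0.793 in mutant libraries (91, 13 and 20 reads), against 0.172, 0.364 and 0.172 in parental libraries (5, 8 and 3 reads). The groups did not overlap, and the means were 0.695 ± 0.207 and 0.236 ± 0.111 (SD, n = 3 each). The deposited p was 0.0246 in the authors' deposited table.

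HIST1H2BF-201, which encodes the same H2B protein as HIST1H2BG, had 0.741, 0.451 and 0.560 in mutant libraries (63, 10 and 11 reads), against 0.133, 0.350 and 0 in parental libraries (3, 6 and 0 reads). Here too every mutant library lay above every parental one, with a deposited p of 0.0365 in the authors' deposited table. HIST1H2AE-201, the divergent partner of HIST1H2BG, had 0.664, 0.953 and 1.08 against 0.104, 0.823 and 0. Its groups overlapped through 1 parental library. HIST1H2AI-201 overlapped in the same way, with 2.18, 1.29 and 2.42 against 0.736, 2.36 and 0.351.

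HIST3H2A-201 was the deepest of these, with 4038 reads. Its abundances were 31.0, 37.3 and 25.3 in mutant libraries, against 18.6, 44.0 and 19.5 in parental libraries. The groups overlapped, because the parental library of middle depth lay above all 3 mutant libraries. Without that library the parental mean was 19.1 and the mutant level was 1.64-fold higher, so 1 library decides the near-equal group means of this gene. The same library also held the highest parental value of HIST1H2AE, HIST1H2AI, HIST1H2BF and HIST1H2BG. Without it HIST1H2BF-201 was 8.80-fold higher in place of 3.63-fold, and HIST1H2BG-201 4.03-fold in place of 2.94-fold. HIST1H2AE-201 was 17.3-fold higher in place of 2.90-fold, and HIST1H2AI-201 3.61-fold in place of 1.71-fold. Leaving out the highest parental value can only raise a fold. In HIST1H2AL-201, HIST1H2BH-201 and HIST1H2BL-201 the same library was the lowest parental one, and the folds fell without it. They were 0.596 in place of 0.672, 0.711 in place of 0.768 and 1.13 in place of 1.32. Among all 3302 transcripts in whole reads with 10 reads or more this library was the highest parental one for 49.5%.

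Of the 8 member transcripts in whole reads with 10 reads or more, 2 had all 3 mutant libraries above the parental ones, against 8.6% of all such transcripts, and 0 had them below, against 7.78%. The other 6 overlapped. HIST1H2BH-201 had 0.246, 0.183 and 0.502 against 0.488, 0.339 and 0.385, HIST1H2BL-201 had 0.260, 0.221 and 0.374 against 0.325, 0.143 and 0.181, and HIST1H2AL-201 had 0.824, 0 and 0.619 against 0.942, 0.533 and 0.673. HIST1H2AH-201, the divergent partner of HIST1H2BK, had only 3, 1 and 1 reads in mutant libraries, against 0 in each parental one, which allows up to 3 reads. Its deposited p of 0.000519 in the authors' deposited table rests on these 5 reads.

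**Figure D3:**
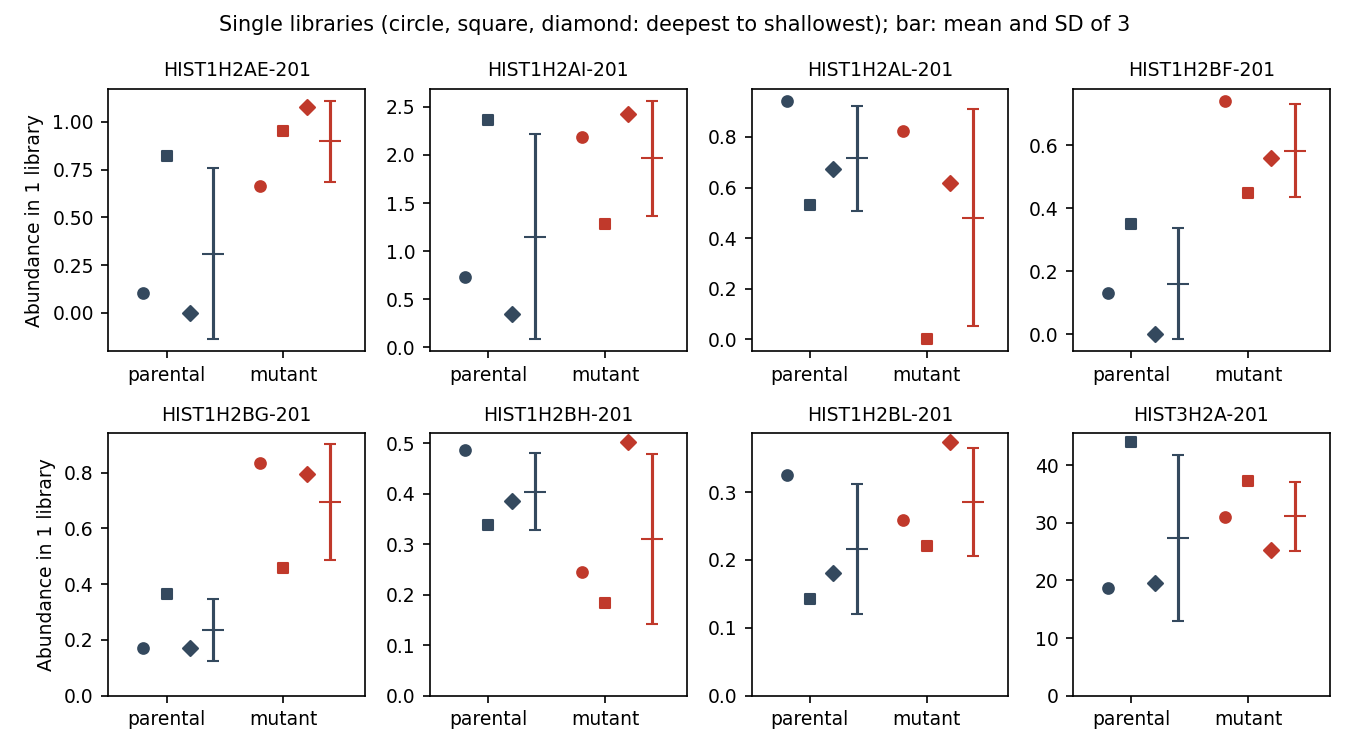
Abundance in single libraries (vertical, linear) of the 8 member transcripts recovered in whole reads with 10 reads or more, with circle, square and diamond for the deepest, middle and shallowest library of a group and a bar for the mean and SD of 3. The groups are apart for HIST1H2BF-201 and HIST1H2BG-201, and the parental square is above every mutant point for HIST3H2A-201.

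The table resolves forms of the messages as annotated, which bears on the reaction that CASP8AP2 takes part in. The division used 1 exon against several and, for 1-exon forms, an end within or beyond 150 bases after the stem-loop, a limit chosen after the lengths were seen. Spliced forms of 7 coding genes, 13 transcripts, summed to 37.5 in the mutant and 6.39 in the parental group (5.87-fold). The 30 transcripts of 1 exon summed to 253 against 95.4 (2.65-fold). These sums cover different sets of genes, and the 1-exon sum includes HIST3H2A at 31.2 against 27.4. The gap between the 2 folds was not tested. Of the 13 spliced transcripts, 9 were higher at an unadjusted deposited p under 0.05, against 3.3% of all tested transcripts, and none was lower, against 2.48%. How reads of a shared first exon were divided between forms is not given in the sources used here. Values of forms of 1 gene therefore depend on each other.

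HIST1H2BD shows the 2 kinds side by side. HIST1H2BD-201 has 2 exons, and its first exon ends at 26158559 on chromosome 6, 27 bases before the stem-loop printed above. An intron of 12415 bases then removes the stem-loop, and AATAAA, the poly(A) signal, stands in the last 40 bases. This form stood at 11.6 against 0.903, which is 12.8-fold, and its deposited p of 5.45e-05 (adjusted 0.106) was the smallest of all members in the authors' deposited table. HIST1H2BD-202, of 1 exon and ending 39 bases after the stem-loop, stood at 1.97 against 0.746 with a deposited p of 0.113 in the authors' deposited table. AATAAA stands in the last 40 bases of HIST1H2BD-202 too, so this signal does not part the 2 forms.

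HIST1H2AC has 3 spliced forms. HIST1H2AC-203, whose first exon ends 35 bases before the stem-loop, stood at 3.69 against 0.347 (10.6-fold). HIST1H2AC-201 and HIST1H2AC-202 keep the stem-loop and go on for 1128 and 1114 bases after it, and stood at 3.58 against 0.565 (6.34-fold) and 4.02 against 0.860 (4.67-fold). All 3 had unadjusted deposited p values under 0.05, the lowest 0.0115 and the highest 0.0159 in the authors' deposited table. In HIST1H2BC the spliced form, which leaves the first exon 27 bases before the stem-loop, stood at 1.38 against 0.296 (deposited p 0.0606 in the authors' deposited table). The 1-exon HIST1H2BC-202 was 5.11-fold higher, at 0.347 against 0.0679, with a deposited p of 0.0143 in the authors' deposited table. Both forms of HIST1H2BC thus had folds, of 4.67 and 5.11, that lie closer together than those of HIST1H2BD, and neither gap was tested.

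HIST1H2BJ was assigned almost wholly to spliced transcripts. HIST1H2BJ-203 stood at 4.47 against 0.680, and HIST1H2BJ-202, which holds only a short piece of the coding sequence, at 3.26 against 0.563. The 1-exon HIST1H2BJ-201, the coding sequence alone, starts at the same base as HIST1H2BJ-203. Its near-0 level thus depends on how shared reads were divided and does not show that the message is spliced. For HIST1H2BJ-203 and HIST1H2BJ-202 the values were as follows. The deposited p values were 0.0383 and 0.0357 in the authors' deposited table. HIST1H2BN-202 and HIST1H2BN-203, which leave the first exon 24 and 51 bases before the stem-loop, stood at 2.66 against 0.926 and 2.39 against 1.15, with deposited p values of 0.0435 and 0.0389 in the authors' deposited table. The 1-exon HIST1H2BN-204 stood at 0.588 against 0.248, and it overlaps HIST1H2AK by 393 bases on the opposite strand. The use of strand in counting is not given in the sources used here. Reads of this pair cannot be told apart without it. HIST1H2BE-202, with 4 exons and the stem-loop kept, was at 0.290 against 0.0524, with a deposited p of 0.0319 in the authors' deposited table. It overlaps AL353759.1 by 730 bases on the opposite strand, so the same limit on strand holds. The 1-exon HIST1H2BE-201 was near 0 in both groups and lower in the mutant group, at 0.00822 against 0.0591 (deposited p 0.447 in the authors' deposited table).

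Forms of 1 exon that run far past the stem-loop, 9 transcripts ending 377 to 1917 bases after it, summed to 46.0 against 33.1 (1.39-fold). Without HIST3H2A they summed to 14.8 against 5.69 (2.60-fold), and 5 of the 9 were higher at an unadjusted p under 0.05, against 3.3% of all tested transcripts. HIST2H2BF-201 was 7.31-fold higher among them, with a deposited p of 0.0197 in the authors' deposited table. Forms that end within 150 bases after the stem-loop, 8 transcripts, summed to 72.5 against 23.3 (3.11-fold), most of it from the HIST2H2AA3 and HIST2H2AA4 copies. Without these they summed to 5.47 against 2.55 (2.15-fold), and 1 of the 8 was higher at an unadjusted p under 0.05, also against 3.3%. The 13 models of 1 exon with no stem-loop, which end at the stop codon, summed to 134.3 against 39.0. Without HIST1H2BK they summed to 4.83 against 4.71 (1.02-fold). AATAAA stood in the last 40 bases of 12 of the 43 coding member transcripts (27.9%), close to the 28.2% of all tested transcripts.

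**Figure D4:**
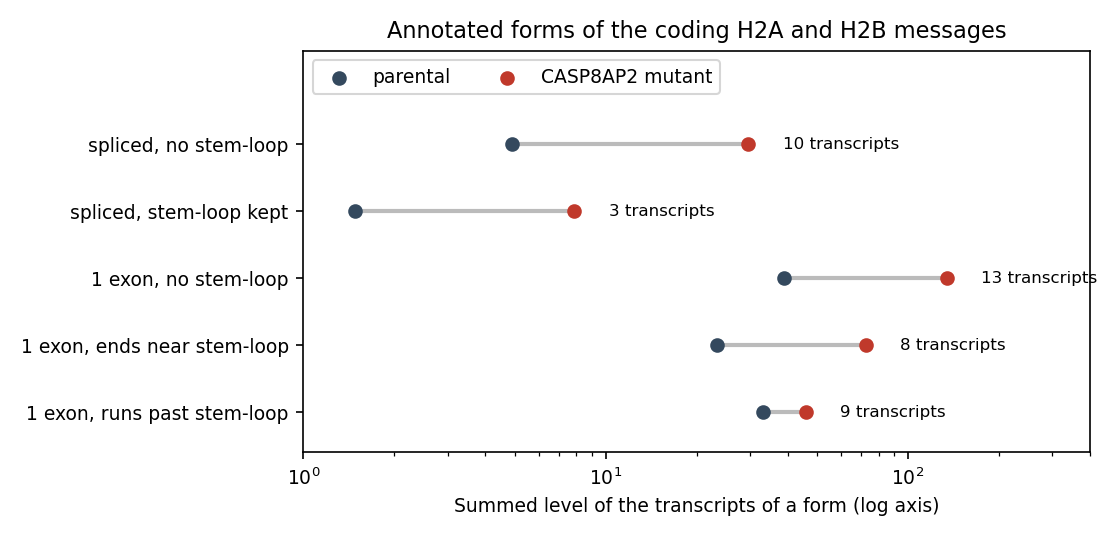
Summed level (horizontal, log axis) of the coding member transcripts of each annotated form, with the parental group in dark blue and the mutant group in red, ordered by fold. The spliced forms without a stem-loop, 29.6 against 4.91, have the widest gap, and the 1-exon forms that run past it, 46.0 against 33.1, the narrowest.

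The members fall into few proteins. The 17 coding H2A genes encode 11 distinct proteins and the 18 coding H2B genes 14, as translated from the annotated reading frames. HIST1H2AG, HIST1H2AI, HIST1H2AK, HIST1H2AL and HIST1H2AM encode 1 protein, with a summed level of 6.20 against 3.19 (log2 ratio 0.78). HIST1H2BC, HIST1H2BE, HIST1H2BF, HIST1H2BG and HIST1H2BI encode another, with 3.30 against 0.873 (1.20). Genes of 1 protein differed among themselves, as HIST1H2AG (log2 ratio 1.12) did from HIST1H2AL (-0.21), a gap that was not tested.

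By position, the 3 measured coding genes of the first HIST1 stretch on chromosome 6 (HIST1H2AC, HIST1H2BC and HIST1H2BD) summed to 26.6 against 3.79 (7.02-fold). The 3 of the second stretch, HIST1H2AG, HIST1H2BJ and HIST1H2BK, summed to 140.4 against 36.4 (3.85-fold), and the 3 of the third, HIST1H2AI, HIST1H2BN and HIST1H2BO, to 10.8 against 5.00 (2.15-fold). The 5 of HIST2 summed to 75.8 against 25.7 (2.94-fold) and both of HIST3 to 32.4 against 27.9 (1.16-fold). These folds were not tested against each other. By annotated gene starts 11 pairs of coding genes were divergent, with 218 to 330 bases between the starts. HIST1H2AK and HIST1H2BN are not counted among them, because the annotated HIST1H2BN-204 spans HIST1H2AK, though the RefSeq promoter windows of these genes overlap. Of the 11 pairs, 4 had both partners measured and in 3 of these both were higher. HIST1H2AC and HIST1H2BC had log2 ratios of 2.15 and 1.00, HIST1H2AG and HIST1H2BJ 1.12 and 1.96, and HIST3H2A and HIST3H2BB 0.18 and 0.48. HIST2H2AC and HIST2H2BE, at -1.20 and 0.95, parted.

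Among the pseudogenes 2 of 14 were measured, and both lie head to head with the HIST2H2AA copies. HIST2H2BD stood at 4.89 against 0.268 (log2 ratio 2.21, deposited p 0.00243) and HIST2H2BC at 5.67 against 1.20 (1.60, deposited p 0.0113) in the authors' deposited table. Their messages share an identical run of 471 bases, so these values are uncertain as single values. The other 12 lay under a level of 1 in both groups.

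The promoters of 3 members are shown because these genes mark the range of the log2 ratios among the more abundant members, from HIST1H2BD (2.46) and HIST1H2BK (1.89) to HIST3H2A (0.18). Each runs from 250 bases before to 50 after the RefSeq start (GRCh38.p14), 5′ to 3′ along the gene. Capitals mark matches of CCAAT, of TATAAA and of the octamer ATTTGCAT on either strand, and overlapping matches run together.
HIST1H2BD (chr6:26157871-26158170, plus strand): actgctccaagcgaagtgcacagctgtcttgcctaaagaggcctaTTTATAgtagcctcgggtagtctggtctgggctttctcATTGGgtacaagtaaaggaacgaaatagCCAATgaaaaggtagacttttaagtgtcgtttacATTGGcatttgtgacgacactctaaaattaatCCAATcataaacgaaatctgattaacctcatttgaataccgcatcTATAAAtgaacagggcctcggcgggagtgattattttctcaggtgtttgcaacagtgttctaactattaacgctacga
HIST1H2BK (chr6:27146809-27147108, minus strand): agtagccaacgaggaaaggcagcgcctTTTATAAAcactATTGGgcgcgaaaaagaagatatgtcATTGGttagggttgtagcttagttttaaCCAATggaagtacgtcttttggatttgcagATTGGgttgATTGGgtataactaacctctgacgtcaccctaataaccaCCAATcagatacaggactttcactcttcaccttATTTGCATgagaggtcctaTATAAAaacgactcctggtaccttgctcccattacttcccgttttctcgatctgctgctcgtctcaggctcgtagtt
HIST3H2A (chr1:228457824-228458123, minus strand): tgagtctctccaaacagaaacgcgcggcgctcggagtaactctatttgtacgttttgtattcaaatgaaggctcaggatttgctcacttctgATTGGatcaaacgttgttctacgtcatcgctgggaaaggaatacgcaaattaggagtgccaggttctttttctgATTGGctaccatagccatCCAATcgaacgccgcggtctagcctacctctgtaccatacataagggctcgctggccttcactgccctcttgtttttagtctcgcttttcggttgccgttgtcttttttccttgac
HIST1H2BD holds 4 matches of CCAAT and 2 of TATAAA, HIST1H2BK 6 of CCAAT, 3 of TATAAA and 1 of the octamer, and HIST3H2A 3 of CCAAT and neither of the others. RefSeq promoters were found for 34 of the 35 coding members. CCAAT occurred in all 34, against 35.7% of the 27305 promoters of the same length. TATAAA occurred in 24 (70.6%, against 12.0%) and the octamer in 25 (73.5%, against 1.80%). Windows of divergent partners overlap, so the counts of partners are not independent. Among measured coding members TATAAA was found in 8 of the 9 with a log2 ratio of at least 1 and in 4 of the other 7, and the octamer in 6 of the 9 and 3 of the 7. These counts describe letters in the window and were not tested.

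Of the other clustered histone genes, from the same libraries, the H1 genes summed to 67.3 against 17.9, of which HIST1H1C made up 65.4 against 17.2. The H3 genes summed to 22.5 against 6.96. The H4 genes summed to 84.2 against 17.0, most of it from HIST2H4A (38.7 against 4.87) and HIST2H4B (35.4 against 7.18). The median log2 ratio over all genes of each family, low ones and pseudogenes kept, was 0.15 for H1, 0.04 for H3 and 0.04 for H4. Among measured genes it was 1.86 for H1 (1 gene), 1.58 for H3 (4 genes) and 1.53 for H4 (5 genes). HIST2H3A and HIST2H3C were listed with identical values, 6.02 against 0.794, so this value enters the H3 sum and medians under both names. For the coding H2A and H2B genes these medians were 0.25 with low ones kept and 1.06 for the 16 measured. The replacement H2A genes were mostly lower. Of 6, 5 were lower and 1 was higher, and their median log2 ratio was -0.46. H2AFJ, which encodes H2A.J, had the widest difference, 0.0352 against 4.59. H2AFX, which encodes H2A.X, was the higher one, at 151 against 109, and H2AFZ, which encodes H2A.Z, stood at 544 against 690. At an unadjusted deposited p under 0.05 of the most abundant transcript 3 of the 6 were lower and none was higher, against 8.63% and 5.17% of all measured genes.

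The machinery around the members was measured in the same way. Of 25 genes of histone 3′ processing and the histone locus body 24 were measured. Their median log2 ratio was -0.16, 8 being higher and 16 lower, and RNU7-1, the gene of the U7 RNA, was listed at 0. At an unadjusted p under 0.05 of the most abundant transcript 3 of the 24 were lower, CPSF3, NCBP1 and SNRPB, against 8.63% of all measured genes, and 1 was higher, CPSF4 (48.3 against 32.8), against 5.17%. Counts this close to the shares over all genes are no result about the list. SLBP, which binds the stem-loop, stood at 58.2 against 73.2 (deposited p 0.597), and NPAT, which activates histone gene transcription, at 4.73 against 5.30 (deposited p 0.343) in the authors' deposited table. LSM11, the U7 protein bound by CASP8AP2, stood at 4.48 against 3.87. Of 7 histone message decay genes 2 were higher and 5 lower, and 1, EXOSC10 (49.7 against 52.8), was lower at an unadjusted p under 0.05, against 8.63% of all measured genes. Of 7 H2A-H2B chaperone genes 2 were higher and 5 lower, and 2, NCL (157 against 256) and NAP1L4 (81.8 against 84.0), were lower by the same rule, again against 8.63%. Levels in this paragraph are sums over a gene's transcripts, while each p belongs to the most abundant transcript alone. The gene levels of NAP1L4 and EXOSC10 are thus close although a transcript of each had an unadjusted p under 0.05.

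Genes of S phase were mostly lower in the mutant libraries. Of 20, all measured, 17 were lower and 3 higher, with a median log2 ratio of -0.41. At an unadjusted p under 0.05 of the most abundant transcript 9 were lower, against 8.63% of all measured genes, and 1, CDT1, was higher, against 5.17%. PCNA, the sliding clamp of DNA replication, stood at 139 against 352. The part of cycle phase in the values of the H2A and H2B genes was not tested.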

How the data were processed

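Libraries were prepared from total RNA with the NEBNext Ultra kit and random priming, per the labels' protocols. A step that keeps only poly(A) RNA would leave out messages that end at the stem-loop, and whether it was used is not given in the sources used here, nor are versions or parameters. Reads were processed with bcl2fastq, STAR and Partek on hg38, per the submitters' processing notes.

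A single table was deposited, which compares the groups transcript by transcript. The group means, ratios, fold changes, p-values and adjusted p-values in it are scores that the authors made before they deposited them, per the file headers as least-squares means of a model and their contrast. Missing means were set to 0. The authors' deposited signal, headed total counts, is not whole and is 3 times as large as both group means together. Less the added 1, the means add up to 496162 in each group, a scale the sources used here do not explain.

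Transcript names were matched to GENCODE 29 (99.1% found), which gave lengths, exons, strands and positions on the same build. The group mean times length was solved for whole numbers of reads per library. This step was tested on simulated data. Library sizes were estimated from the value of 1 read. They differ by up to 6.26-fold, and the mutant libraries together hold 2.38 times the parental reads, so a low level of a member is seen more readily in the mutant group. The SDs of single libraries cover spread between 3 libraries.

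Members and gene lists were chosen with earlier results of these data known. Every coding member at a level of 1 or more, and every member with a deposited p under 0.05, is named. The members beyond this rule, the stem-loops and the promoters shown were picked after their values were seen. Promoters were matched by Entrez gene number. Calls rest on the deposited p-values, adjusted over 140552 transcripts by the authors. An equal-variance test on log2(abundance + 1) returned the same p for the transcripts kept in whole reads, which were selected by that match. Alternatives were other filters, added values, gene summaries, copies and thresholds, and a GC trend. Analyses used Python 3.11.15, numpy 2.4.6, pandas 2.3.3 and matplotlib 3.10.9.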

Additional observations from a re-analysis of the deposited data

How the results depend on the processing

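The direction of the H2A and H2B medians, of the summed level and of the spliced forms was the same under every alternative run. The median log2 ratio of 1.06 was 1.89 at a level of at least 5, 0.25 with no filter and 1.53 with 0.1 added in place of 1. The H2A median of 1.12 was 1.67, 0.18 and 1.37 under the same settings, 1.32 with transcripts in place of gene sums, 0.79 without HIST2H2AA4 and 0.89 for genes at 1 or more in the parental group. The H2B median of 1.00 was 1.89, 0.47 and 1.91 under the first 3 settings, 1.18 with pseudogenes and 1.44 for genes at 1 or more in the parental group. The count of 15 members higher was 9 at a level of at least 5 and 25 with no filter, since fewer or more genes were kept. The log2 ratio of the summed level, 1.51, was 1.25 without HIST1H2BK, 1.41 for transcripts of 1 exon and 1.80 without HIST3H2A. The log2 ratio of the summed spliced forms, 2.55, was 2.24 without HIST1H2BD. For the summed level and the summed spliced forms nothing was added before these log2 ratios were taken. The leaving out of HIST2H2AA4, HIST3H2A and HIST1H2BD and the filter on the parental group were chosen after seeing the data. For the other moves the cause was not tested.

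The count of transcripts past the deposited adjusted p of 0.05 was 0 of 51, and 0 at 0.01 and for the factor named Type. It was 23 at an unadjusted p under 0.05. Leaving out 1 library at a time could be done for 8 member transcripts in whole reads, and 3 of 48 values changed sign. They belonged to HIST3H2A-201 (log2 ratio -0.03 to 0.68) and HIST1H2AL-201 (-0.39 to 0.00), neither of which had an unadjusted p under 0.05. HIST1H2BG-201 ranged from 0.39 to 0.55 and HIST1H2BF-201 from 0.35 to 0.57. No paired analysis was possible because the recovered libraries carry no replicate numbers. Depth limits the low members: 9 of the 17 transcripts in whole reads had under 10 reads in all.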
